A study of Mus musculus with 24 samples.

Results

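The 49 genes described here encode the proteins that license replication origins, fire them and copy DNA at the fork. They were picked by name from the 41710 genes that each expression table lists, with earlier results of these data known. They fall into 13 roles: the origin recognition complex (Orc1 to Orc6), the loading factors (Cdc6, Cdt1 and Gmnn), the ring of the replicative helicase (Mcm2 to Mcm7), other MCM proteins (Mcm8 and Mcm10), the kinase that fires origins (Cdc7 and Dbf4), helicase activation (Cdc45, Gins1 to Gins4 and Ticrr), polymerases alpha, delta and epsilon, the sliding clamp and its loader (Pcna and Rfc1 to Rfc5), the single-strand binding proteins (Rpa1 to Rpa3), Okazaki fragment processing (Fen1 and Lig1) and fork protection (Timeless, Tipin, Clspn and Wdhd1). RNA-seq was performed on mouse embryonic fibroblasts (MEFs) of 4 genotypes, with 3 libraries each, to ask how loss of the transcription factor Myc, of Mlx, or of both changes expression. The question was put in primary cells and again in cells immortalized with SV40 T-antigen, a viral protein that binds the p53 and retinoblastoma proteins.

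WT cells kept both genes, MlxKO and MycKO cells had lost Mlx or Myc, and DKO cells had lost both. The deletions were made in culture, in MEFs that carried floxed alleles of Myc, Mlx or both and a Cre recombinase fused to an estrogen receptor, expressed in all cells from the ROSA26 locus. Cre was switched on with 500 nM 4-hydroxytamoxifen for 7 days in primary MEFs and 10 days in immortalized MEFs, and control cells received the ethanol vehicle. RNA of primary cells was taken on day 10. The immortalized lines had in addition been transduced with a lentivirus for T-antigen and selected with blasticidin. Each floxed line was a pool of cells from several embryos, WT cells were floxed cells with intact loci, and the labels do not say from which line the WT libraries came, so a difference between genotypes and a difference between pools cannot be told apart where the lines differ. The study calls the primary libraries biological replicates, but whether the 3 of a group came from separate cultures is not stated, so the p-values below measure the spread between these libraries. Control cells received vehicle, so in comparisons with WT the deletion cannot be told apart from 4-hydroxytamoxifen treatment and active Cre. In bulk RNA, fewer cells in the cell cycle and less RNA per cell cannot be told apart.

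Before DNA is copied, the origin recognition complex and the loading factors place a double ring of MCM proteins on the DNA, a step called licensing. Kinases then fire the origin by recruiting Cdc45 and the GINS complex, which turn the ring into an active helicase, and polymerase alpha lays down primers that polymerases delta and epsilon extend with the help of the sliding clamp. Most of these genes are transcribed as cells enter S phase, under E2F factors that the retinoblastoma protein holds in check. Myc with its partner Max, and Mlx with MondoA or ChREBP, bind the E-box sequence CACGTG.

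Reads on genes numbered 15986856 to 20966163 per primary library and 17541112 to 19851300 per immortalized library, so that 3 reads corresponded to 0.149 to 0.196 CPM and 0.145 to 0.183 CPM. Myc stood at 89.8 to 100.1 CPM in primary WT libraries, 85.6 to 89.6 in MlxKO, 25.8 to 26.8 in MycKO and 19.9 to 22.9 in DKO, and Mlx at 20.5 to 26.0, 13.01 to 14.0, 17.3 to 21.1 and 9.73 to 12.0 CPM in the same order, so each targeted gene was lower where it had been deleted. In immortalized cells Myc stood at 9.96 to 17.2 CPM in MycKO and 4.25 to 8.02 CPM in DKO libraries, and the WT libraries read 48.1, 39.9 and 177.5 CPM, while Mlx stood at 12.1 to 17.0 CPM in MlxKO and 14.5 to 18.0 CPM in DKO against 20.5 to 25.1 CPM in WT libraries. The WT library with 177.5 CPM of Myc, WT library 4, correlated with the other WT libraries at r = 0.943 to 0.950, against 0.992 between those, and was the highest WT library for 39 of the 49 replication genes. Fibroblast markers (8 genes) summed to at least 13560 CPM in every library, although Thy1 read 10.2 to 10.7 CPM in immortalized DKO and 633 to 640 CPM in immortalized MycKO libraries. Macrophage markers (7 genes) summed to 263 to 504 CPM in primary WT, 289 to 356 in MlxKO, 46.4 to 68.0 in MycKO and 91.6 to 212 in DKO libraries, and to at most 5.80 CPM in any immortalized library, where 2 to 4 of the 7 were at 0 in a group. Endothelial markers (4 genes) summed to 13.5 to 14.0 CPM in primary WT and 2.99 to 7.98 CPM in the primary knockouts, and epithelial markers (4 genes) to 16.1 to 19.3 CPM and 1.497 to 4.37 CPM. The part of these other cells in the replication gene results was not tested.

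In primary MEFs the replication genes were lower without Myc and lower still without both Myc and Mlx. The summed level of the 49 genes was 1809 to 1897 CPM in WT, 1567 to 1659 in MlxKO, 1140 to 1233 in MycKO and 916 to 933 in DKO libraries, with no overlap between any of the 4 groups. Against WT, 46 of the 49 fell in MycKO (median log2 change -0.66, all genes tested 0.00021) where 21.9% of all tested genes fell, 10 fell in MlxKO (median -0.22) where 5.14% did, and 47 fell in DKO (median -0.94) where 25.5% did. All 3 knockout libraries lay below all 3 WT libraries for 45, 28 and 47 of the 49 genes, against 24.6%, 14.4% and 30.8% of all genes. None of the 49 rose in any of the 3 primary knockouts by limma, edgeR or DESeq2, and 1, Orc3 in MlxKO, was higher at an unadjusted p under 0.05, where limma called 20.4%, 3.75% and 24% of all tested genes higher in MycKO, MlxKO and DKO. The 3 comparisons share their WT libraries. The map of all genes in all libraries and the plot of the changes show this by role.

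**Figure D1:**
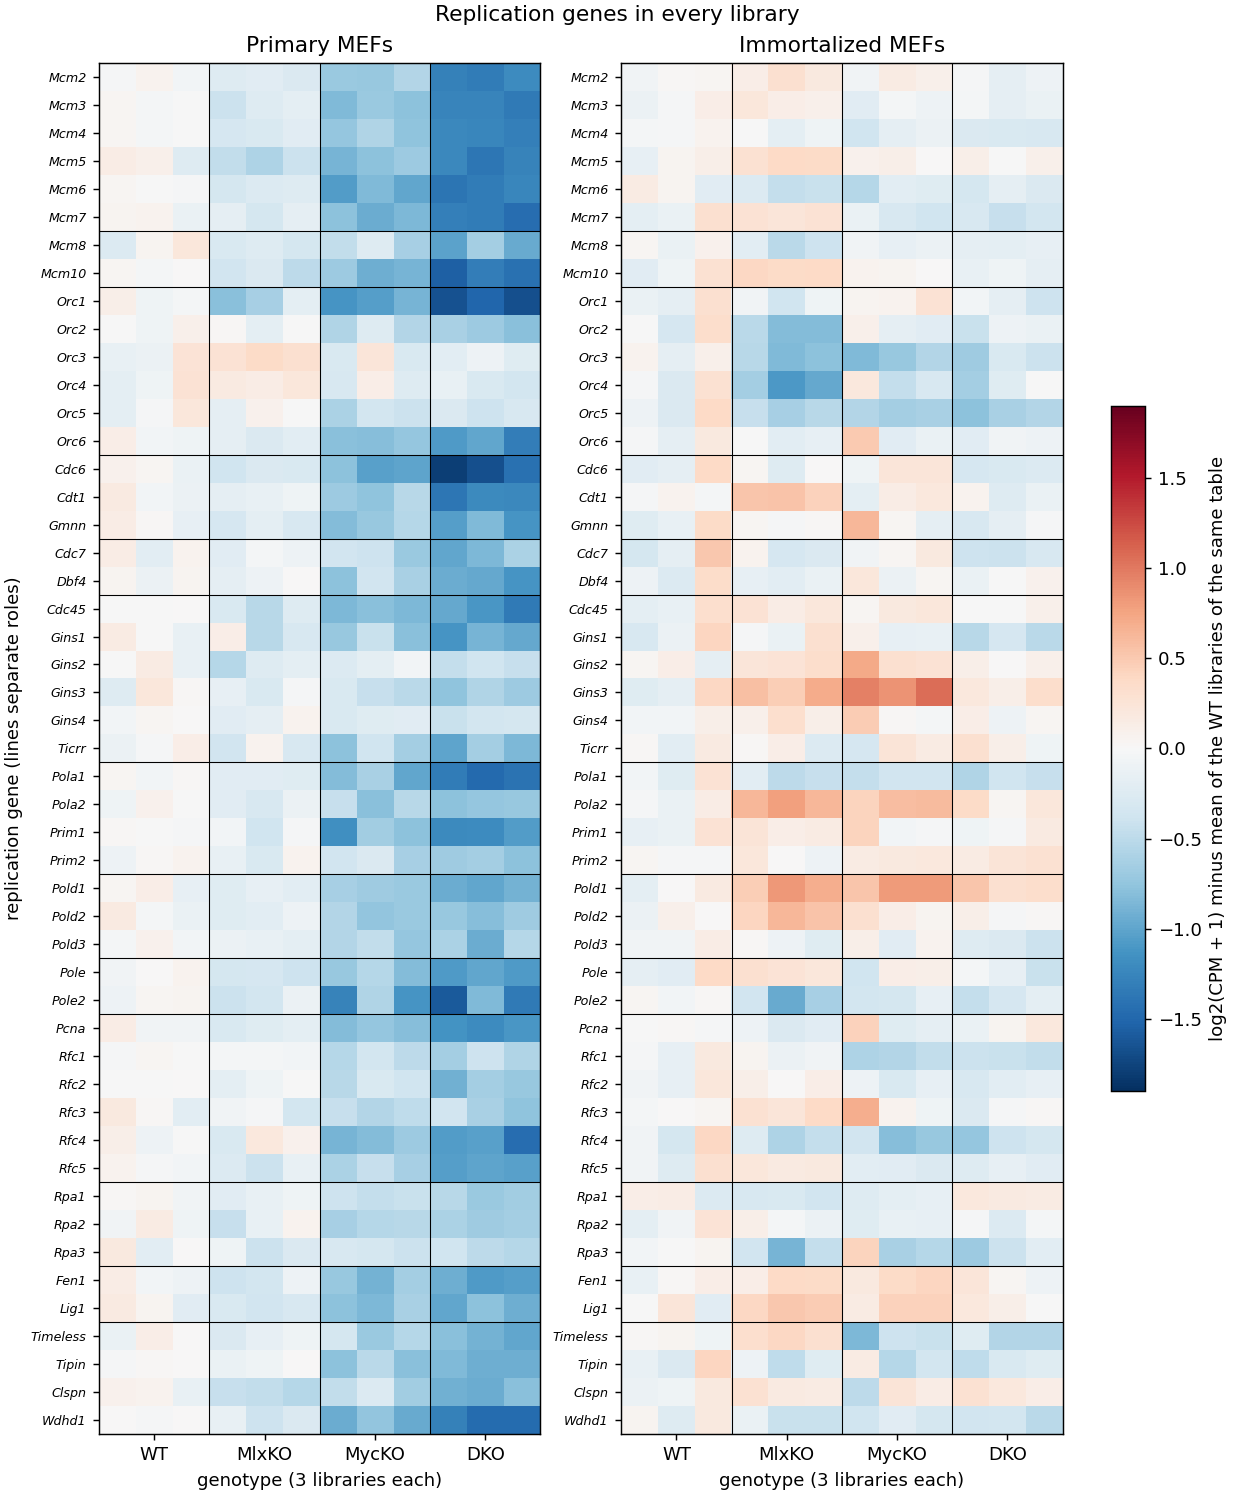
Each row is a replication gene and each column a library, for primary (left) and immortalized (right) MEFs, and the color gives log2(CPM + 1) minus the mean of the 3 WT libraries of the same table. In primary cells nearly all rows darken from WT to MycKO to DKO, where the 49 genes have a median change of -0.94, and in immortalized cells rows of both colors stand side by side.

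**Figure D2:**
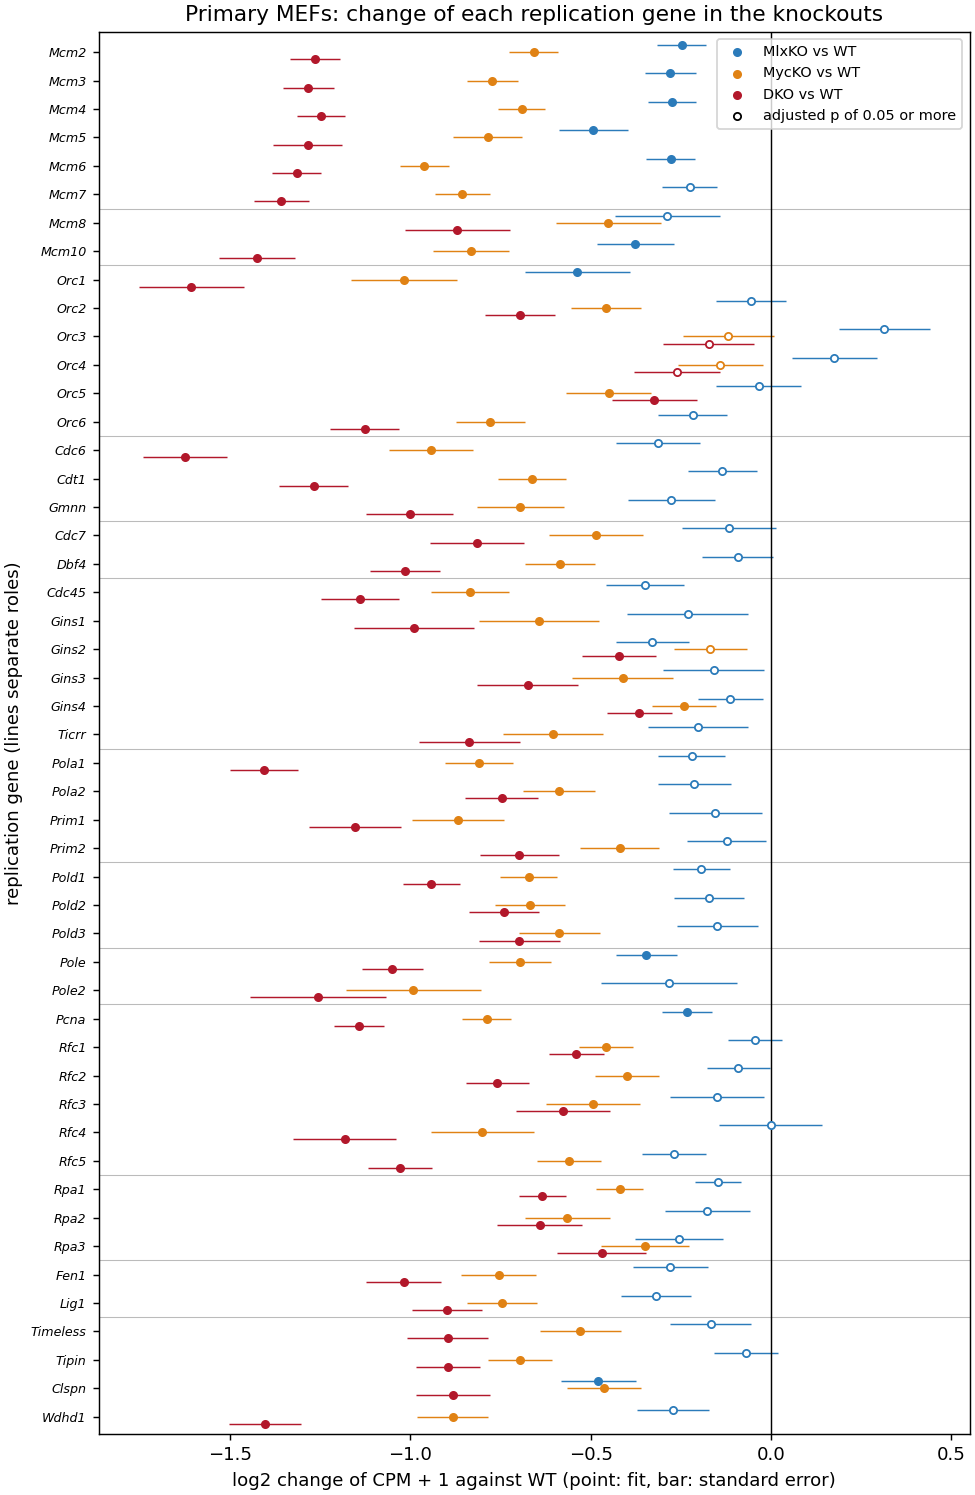
Log2 change of CPM + 1 against WT in primary MEFs for each of the 49 genes, with its standard error as a bar, for MlxKO, MycKO and DKO. Filled points have an adjusted p under 0.05, and the DKO points reach from -0.17 for Orc3 to -1.63 for Cdc6.

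Beside the 49 genes, 7 genes of nucleotide supply fell in both MycKO and DKO cells, among them Rrm2, a subunit of ribonucleotide reductase, at -1.27 in DKO. Of 30 other replication factors, 21 fell and 1 rose in MycKO, and 24 fell and 1 rose in DKO, the rise being Pold4 at 0.42, the small subunit of polymerase delta. All 10 mitotic markers fell in MycKO and in DKO and 7 of 10 in MlxKO, and their sum was 1004 to 1038 CPM in WT, 781 to 826 in MlxKO, 585 to 729 in MycKO and 488 to 526 in DKO libraries. The replication genes thus moved beside general markers of dividing cells, and the part of cell division in the change was not tested. Per kilobase of exon, Pcna had the highest WT level at 51.7 CPM per kb (SD 4.67, n = 3), followed by Mcm6 at 24.8 and Mcm4 at 19.2, and Ticrr had the lowest at 1.51 CPM per kb.

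The origin recognition complex binds the origin and stays on chromatin, and its members responded unequally. Orc1 (chr4:108436540-108473245, plus strand), the ATPase subunit that cycles in and out of the complex, read 11.8, 10.2 and 10.5 CPM in WT, 5.81, 6.64 and 9.35 in MlxKO, 4.44, 4.71 and 5.38 in MycKO and 2.76, 3.17 and 2.71 in DKO libraries. The 4 groups did not overlap. On the log2(CPM + 1) scale Orc1 was 3.05-fold lower in DKO, a log2 change of -1.61 (SE 0.15, limma adjusted p 1.83e-07). It was the gene of the 49 with the largest fall in MycKO, -1.02 (SE 0.15, limma adjusted p 3.32e-05). Orc6, the smallest subunit, changed by -1.13 (SE 0.10, limma adjusted p 8.68e-08) in DKO, and Orc2 by -0.70 (SE 0.10, limma adjusted p 1.96e-05). Orc5 changed by -0.32 (SE 0.12, limma adjusted p 0.0315), and the call was lost without WT library 2 or 3 or DKO library 13, 14 or 15 (log2 change -0.35 to -0.21, limma adjusted p up to 0.162).

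Orc3 and Orc4, core subunits of the same complex, did not pass the test in MycKO or DKO. Orc3 (chr4:34567214-34614957, minus strand) read 29.8, 30.1 and 39.3 CPM in WT, 40.0, 42.6 and 40.6 in MlxKO, 26.6, 38.5 and 26.7 in MycKO and 28.5, 30.7 and 27.8 in DKO libraries. Its MlxKO libraries all lay above the WT libraries, and its MycKO and DKO libraries overlapped them. The log2 change of Orc3 was -0.17 (SE 0.13, limma adjusted p 0.275) in DKO and 0.32 (SE 0.13, limma adjusted p 0.134) in MlxKO, and that of Orc4 was -0.26 (SE 0.12, limma adjusted p 0.0788) in DKO. Parts of the exons of Orc3 and Orc4 (35.8% and 27.0% of bases) also lie under exons of a gene on the other strand, Akirin2 and Acvr2a, and because the strand setting of the counting is not given in the sources used here their values are uncertain to that extent.

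The loading factors bring the MCM ring to the origin complex. Cdc6 (chr11:98798507-98814766, plus strand), the ATPase that works with Orc1 to load the ring, read 18.5, 18.0 and 15.95 CPM in WT, 13.2, 14.2 and 14.1 in MlxKO, 9.70, 7.98 and 8.17 in MycKO and 4.34, 4.81 and 5.87 in DKO libraries. No DKO library reached the lowest MycKO library, and no MycKO or MlxKO library reached the lowest WT library. Its log2 change in DKO was -1.63 (SE 0.12, limma adjusted p 1.54e-08), and its change from MycKO to DKO was -0.68 (SE 0.12, limma adjusted p 0.000422). On the log2(CPM + 1) scale its DKO fall was the largest of the 49, with Orc1 next at -1.61. The added 1 shrinks changes of low genes, and the order of these genes depends on it. Mean CPM went from 17.5 in WT to 5.01 in DKO for Cdc6 and from 10.8 to 2.88 for Orc1. Cdt1, which carries the ring to the origin, read 40.0, 33.8 and 32.5 CPM in WT, 31.2, 31.8 and 33.2 in MlxKO, 21.5, 20.3 and 24.2 in MycKO and 13.03, 14.6 and 14.6 in DKO libraries. WT and MlxKO libraries overlapped, whereas all MycKO libraries lay below both and all DKO libraries below MycKO. Cdt1 changed by -1.27 (SE 0.095, limma adjusted p 2.29e-08) in DKO. Gmnn, which encodes geminin, the inhibitor that binds Cdt1 after origins have fired, read 14.1, 12.9 and 11.3 CPM in WT, 9.97, 11.00 and 10.1 in MlxKO, 6.76, 7.33 and 8.42 in MycKO and 5.62, 6.71 and 5.30 in DKO libraries. Like the factor it inhibits it fell, with a log2 change of -1.002 (SE 0.12, limma adjusted p 4.07e-06) in DKO and -0.70 (SE 0.12, limma adjusted p 0.000202) in MycKO.

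The 6 genes of the MCM ring fell to a like extent in DKO. Their DKO changes spanned -1.36 to -1.25 with a median of -1.28, their MycKO changes -0.96 to -0.66, and all 6 fell in MycKO and in the step from MycKO to DKO. Mcm7 (chr5:138162844-138170684, minus strand) read 104, 105 and 91.7 CPM in WT, 88.7, 78.8 and 88.7 in MlxKO, 57.9, 51.7 and 54.6 in MycKO and 40.1, 39.0 and 36.0 in DKO libraries. Mcm4 read 106, 100.3 and 102 CPM in WT, 81.9, 84.0 and 87.9 in MlxKO, 61.1, 68.5 and 59.8 in MycKO and 43.4, 43.0 and 41.2 in DKO libraries. For both genes the 4 groups did not overlap, with MlxKO between WT and MycKO. Mcm7 was 2.56-fold lower in DKO, a log2 change of -1.36 (SE 0.076, limma adjusted p 1.01e-09), and Mcm4 was 2.38-fold lower, -1.25 (SE 0.066, limma adjusted p 5.59e-10). Mcm2 read 83.1, 88.5 and 81.3 CPM in WT, 70.9, 72.2 and 69.4 in MlxKO, 51.3, 51.0 and 57.0 in MycKO and 34.0, 33.1 and 36.4 in DKO libraries, with its groups separate in the same order. Mcm6, the highest ring member per kilobase, fell by 0.96 in MycKO (SE 0.068, limma adjusted p 2.09e-08), the largest MycKO change of the ring. Of the Mcm7 transcript, 12.6% of 50-base words also occur in another gene, chiefly the copy Gm5487, so some of its reads could have been placed elsewhere.

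Outside the ring, Mcm10, which binds the activated helicase and polymerase alpha, read 19.5, 18.5 and 19.1 CPM in WT, 14.6, 15.6 and 13.2 in MlxKO, 11.4, 9.55 and 9.86 in MycKO and 5.83, 7.08 and 6.51 in DKO libraries. Its groups did not overlap, and it changed by -1.43 (SE 0.11, limma adjusted p 2.22e-08) in DKO. Mcm8, which with Mcm9 works in recombination, had a lower level, 7.79, 9.88 and 11.2 CPM in WT, 7.62, 7.89 and 7.34 in MlxKO, 6.60, 7.85 and 5.78 in MycKO and 4.19, 5.76 and 4.43 in DKO libraries. The WT spread overlapped the MycKO libraries, and the change was -0.45 (SE 0.15, limma adjusted p 0.0193) in MycKO and -0.87 (SE 0.15, limma adjusted p 0.000111) in DKO. The MycKO call was lost without WT library 2 or 3 or MycKO library 9 or 11 (log2 change -0.44 to -0.35, limma adjusted p up to 0.0918).

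Promoter windows of 250 bases before to 50 bases after the RefSeq start were found for 40 of the 49 genes, in a RefSeq table of build GRCm38.p6. Words bound by E2F factors (TTTCCCGC, TTTCGCGC, TTTGCCGC or TTTGGCGC, on either strand) occurred in the windows of 17 of these 40 genes (42.5%), against 2.60% of 27025 genes with a window. The E-box CACGTG, which is its own reverse complement, occurred in 7 of 40 (17.5%), against 8.09%. Stretches of windows with either kind of word are shown here because their genes changed by much (the first 4) or by less (the last 2) in DKO, re-placed on GRCm39 by exact match, written 5′ to 3′ along the gene and with the words in capitals, where adjoining capitals are overlapping words on opposite strands. Those of Mcm6 (chr1:128287518-128287572, minus strand) and Mcm5 (chr8:75835957-75836036, plus strand) hold a pair of overlapping E2F words on opposite strands and lie outside annotated exons. Those of Cdc6 (chr11:98798807-98798886, plus strand) and Pola1 (chrX:92675852-92675931, minus strand) hold a single E2F word, the former within the annotated Cdc6 gene with 1 base in an exon and the latter outside annotated genes. Those of Pola2 (chr19:6014405-6014484, minus strand) and Rfc1 (chr5:65493158-65493232, minus strand) hold an E-box and lie within exons of the predicted genes Gm59274 and Gm71527.
Mcm6: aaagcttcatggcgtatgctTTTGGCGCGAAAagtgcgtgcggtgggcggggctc
Mcm5: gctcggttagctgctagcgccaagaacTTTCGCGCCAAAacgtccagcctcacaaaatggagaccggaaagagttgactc
Cdc6: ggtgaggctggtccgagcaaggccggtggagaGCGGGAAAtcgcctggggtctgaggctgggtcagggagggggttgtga
Pola1: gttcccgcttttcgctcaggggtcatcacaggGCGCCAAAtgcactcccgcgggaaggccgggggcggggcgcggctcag
Pola2: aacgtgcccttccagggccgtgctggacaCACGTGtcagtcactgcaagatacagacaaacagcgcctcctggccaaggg
Rfc1: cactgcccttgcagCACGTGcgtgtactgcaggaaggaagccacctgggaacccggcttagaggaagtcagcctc

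The genes with an E2F word had a median DKO change of -1.26 in primary cells (n = 17, from -1.63 to -0.17), those with a window but no such word -0.90 (n = 23, from -1.43 to -0.26), and those with a CACGTG -0.75 (n = 7, from -1.02 for Fen1 to -0.26). The ranges overlapped widely, since Orc3 with its small change also carries an E2F word, and no test was made over genes. The printed stretches pair E2F words with large changes and E-boxes with smaller ones by choice. Orc3 and Fen1, which are not printed, go the other way. A word in a window is a match of letters and not evidence that a factor binds there.

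The kinase subunits Cdc7 and its activator Dbf4 fire licensed origins by phosphorylating the ring. Dbf4 read 61.3, 54.7 and 61.0 CPM in WT, 52.0, 54.8 and 59.1 in MlxKO, 33.8, 45.8 and 38.1 in MycKO and 30.1, 29.6 and 26.4 in DKO libraries, with no DKO library reaching the MycKO libraries. Dbf4 changed by -1.02 (SE 0.10, limma adjusted p 3.53e-07) in DKO and Cdc7 by -0.82 (SE 0.13, limma adjusted p 7.19e-05). Cdc7 itself read 15.4, 12.1 and 14.6 CPM in WT, 11.9, 13.6 and 12.9 in MlxKO, 10.6, 10.4 and 8.22 in MycKO and 6.54, 7.24 and 8.87 in DKO libraries. MlxKO libraries overlapped WT for both genes, and for Cdc7 MycKO and DKO overlapped each other below WT.

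Among the factors that activate the helicase the size of the response varied with the subunit. Cdc45, which binds the ring together with GINS, read 20.1, 20.0 and 20.3 CPM in WT, 16.4, 13.8 and 16.9 in MlxKO, 10.7, 11.2 and 10.8 in MycKO and 9.76, 8.82 and 7.37 in DKO libraries. The 4 groups did not overlap, and Cdc45 changed by -1.14 (SE 0.11, limma adjusted p 2.98e-07) in DKO. Gins4, a subunit of the GINS complex, read 21.0, 22.5 and 22.03 CPM in WT, 18.6, 19.2 and 22.8 in MlxKO, 17.7, 18.5 and 18.7 in MycKO and 16.1, 17.0 and 17.1 in DKO libraries. It changed by only -0.36 (SE 0.090, limma adjusted p 0.00289) in DKO and -0.24 (SE 0.090, limma adjusted p 0.0400) in MycKO, the latter a call that DESeq2 did not make and that was lost without WT library 1, 2 or 3, MycKO library 9 or 11 or DKO library 14 or 15 (log2 change -0.27 to -0.22, limma adjusted p up to 0.114). Gins2 did not pass the test in MycKO, at -0.17 (SE 0.10, limma adjusted p 0.200), and fell in DKO, at -0.42 (SE 0.10, limma adjusted p 0.00251), and 67.3% of its exon bases lie under exons of Gse1 on the other strand. Gins3 read 4.68, 6.84 and 5.84 CPM in WT, 5.06, 4.49 and 5.60 in MlxKO, 4.49, 3.99 and 3.74 in MycKO and 2.96, 3.54 and 3.17 in DKO libraries, and it changed by -0.41 (SE 0.14, limma adjusted p 0.0266) in MycKO and -0.68 (SE 0.14, limma adjusted p 0.000800) in DKO, with every DKO library below every MycKO library. Ticrr, which carries Cdc45 to the ring, changed by -0.84 (SE 0.14, limma adjusted p 0.000106) in DKO. From MycKO to DKO 0 of these 6 genes passed by limma, edgeR or DESeq2, with 2 at an unadjusted p under 0.05, and all 6 fitted changes were negative.

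Polymerase alpha-primase starts every new strand, and its catalytic subunit Pola1 had the largest change of the role in DKO, whereas in MycKO Prim1 did, at -0.87 against -0.81. Pola1 read 33.5, 31.2 and 33.1 CPM in WT, 27.9, 27.9 and 27.7 in MlxKO, 18.0, 20.9 and 15.9 in MycKO and 12.3, 11.04 and 11.7 in DKO libraries. No group overlapped another, and the log2 change was -1.41 (SE 0.094, limma adjusted p 7.12e-09) in DKO and -0.60 (SE 0.094, limma adjusted p 0.000199) from MycKO to DKO. Prim2, the large primase subunit, read 21.7, 23.5 and 24.4 CPM in WT, 21.0, 18.8 and 24.2 in MlxKO, 17.8, 19.0 and 14.7 in MycKO and 14.2, 14.47 and 13.1 in DKO libraries. Its MlxKO libraries overlapped WT, and it changed by -0.70 (SE 0.11, limma adjusted p 6.32e-05) in DKO. Prim1, the subunit that synthesizes the RNA primer, changed by -1.15 (SE 0.13, limma adjusted p 1.70e-06), and the accessory subunit Pola2 by -0.75 (SE 0.10, limma adjusted p 1.37e-05). Pola2 read 21.8, 24.7 and 23.1 CPM in WT, 19.8, 18.6 and 21.3 in MlxKO, 16.9, 12.95 and 15.7 in MycKO and 13.03, 13.5 and 13.7 in DKO libraries, with MycKO and DKO overlapping each other below both other groups.

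Polymerase delta copies mainly the lagging strand and polymerase epsilon the leading strand. Pold1, the catalytic subunit of delta, read 45.4, 48.1 and 39.6 CPM in WT, 37.7, 39.6 and 38.4 in MlxKO, 28.1, 27.3 and 26.8 in MycKO and 22.5, 21.8 and 23.4 in DKO libraries. MlxKO libraries lay just below the lowest WT library, and MycKO and DKO libraries lay well below them. Pold1 changed by -0.94 (SE 0.079, limma adjusted p 7.65e-08) in DKO, and Pold3, an accessory subunit, by -0.70 (SE 0.11, limma adjusted p 7.50e-05). Pold3 read 19.0, 20.7 and 18.7 CPM in WT, 18.0, 17.5 and 16.9 in MlxKO, 12.9, 13.7 and 11.3 in MycKO and 12.4, 9.61 and 13.1 in DKO libraries, and its MycKO and DKO libraries overlapped each other below the rest. Pole2, the second subunit of epsilon, read 10.9, 12.1 and 12.2 CPM in WT, 8.64, 9.03 and 10.8 in MlxKO, 4.27, 7.52 and 4.83 in MycKO and 3.22, 6.13 and 4.03 in DKO libraries. In MycKO and DKO a single library of each was higher than the other two and the groups overlapped, but both lay below WT. Pole2 changed by -1.26 (SE 0.19, limma adjusted p 3.91e-05) and the catalytic subunit Pole by -1.05 (SE 0.086, limma adjusted p 5.75e-08) in DKO. Pole read 32.7, 34.4 and 35.9 CPM in WT, 27.0, 27.4 and 26.0 in MlxKO, 20.5, 23.2 and 18.9 in MycKO and 15.7, 16.7 and 15.7 in DKO libraries, without overlap between any of the 4 groups.

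At the clamp, Pcna, the ring that holds polymerases on DNA, read 137, 118 and 117 CPM in WT, 101, 105 and 109 in MlxKO, 69.5, 74.3 and 69.8 in MycKO and 56.0, 53.6 and 57.0 in DKO libraries. All 4 groups were separate, and the change was -1.14 (SE 0.069, limma adjusted p 2.22e-09) in DKO, with the limit that 17.4% of its 50-base words also occur in another gene, chiefly the copy Pcna-ps2. The clamp loader subunits spread from Rfc4, -1.18 (SE 0.14, limma adjusted p 4.23e-06), to Rfc1, -0.54 (SE 0.076, limma adjusted p 1.97e-05). Rfc4, of whose exon bases 29.05% lie under exons of Eif4a2 on the other strand, read 13.1, 11.4 and 12.0 CPM in WT, 9.81, 14.2 and 12.9 in MlxKO, 6.15, 6.41 and 7.12 in MycKO and 5.31, 5.44 and 3.80 in DKO libraries. Rfc1, the large subunit found only in the replicative loader, read 59.4, 62.1 and 60.5 CPM in WT, 59.1, 59.1 and 58.3 in MlxKO, 41.6, 47.6 and 42.8 in MycKO and 38.4, 45.8 and 40.4 in DKO libraries. For Rfc4 the MlxKO libraries spanned the WT values, and for Rfc1 they lay just below them, with MycKO and DKO overlapping each other.

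The 3 RPA genes, whose products coat single-stranded DNA, changed less than the ring. Rpa2 read 18.7, 22.2 and 18.5 CPM in WT, 14.3, 17.8 and 20.6 in MlxKO, 12.5, 13.2 and 13.4 in MycKO and 12.7, 11.9 and 12.3 in DKO libraries. Rpa3 read 12.5, 9.29 and 10.9 CPM in WT, 10.2, 7.89 and 8.73 in MlxKO, 8.59, 8.37 and 7.87 in MycKO and 8.12, 7.34 and 7.14 in DKO libraries. MycKO and DKO libraries lay below WT and overlapped each other for both genes. Rpa2 changed by -0.64 (SE 0.12, limma adjusted p 0.000250) and Rpa3 by -0.47 (SE 0.12, limma adjusted p 0.00439) in DKO, and the call for Rpa3 was lost after a correction for GC content and length.

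Fen1 and Lig1 trim and seal Okazaki fragments. Fen1 read 36.1, 31.4 and 30.2 CPM in WT, 24.6, 25.2 and 30.3 in MlxKO, 19.3, 16.9 and 20.4 in MycKO and 16.6, 14.9 and 15.1 in DKO libraries, and it changed by -1.02 (SE 0.10, limma adjusted p 6.04e-07) in DKO. Lig1 read 49.3, 45.2 and 37.6 CPM in WT, 35.7, 33.9 and 35.1 in MlxKO, 25.2, 23.8 and 28.2 in MycKO and 21.7, 24.98 and 22.5 in DKO libraries, a log2 change in DKO of -0.90 (SE 0.10, limma adjusted p 1.40e-06). MlxKO libraries overlapped WT for Fen1 and lay just below for Lig1, and 66.0% of the exon bases of Fen1 lie under a predicted gene, Gm10143, on the other strand. In the fork protection group, Wdhd1, which ties polymerase alpha to the helicase, read 24.6, 23.8 and 24.5 CPM in WT, 21.96, 18.2 and 19.9 in MlxKO, 12.1, 14.1 and 12.1 in MycKO and 9.40, 8.19 and 8.18 in DKO libraries. Its groups were separate, and it changed by -1.40 (SE 0.10, limma adjusted p 1.38e-08) in DKO. Clspn, which relays signals from stalled forks to the checkpoint kinase Chk1, read 30.6, 30.2 and 26.0 CPM in WT, 21.2, 20.6 and 19.6 in MlxKO, 20.5, 23.9 and 18.0 in MycKO and 14.9, 14.47 and 16.3 in DKO libraries. Here MlxKO and MycKO libraries overlapped and both lay below WT, with changes of -0.48 (SE 0.10, limma adjusted p 0.00777) and -0.46 (SE 0.10, limma adjusted p 0.00180), and the DKO change was -0.88 (SE 0.10, limma adjusted p 3.14e-06).

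In primary cells 10 of the 49 genes were lower in MlxKO than in WT: Mcm2 to Mcm6, Mcm10, Orc1, Pole, Pcna and Clspn. The largest change was that of Orc1, -0.54 (SE 0.15, limma adjusted p 0.0294), followed by Mcm5, -0.49 (SE 0.10, limma adjusted p 0.00413), and Clspn. Mcm5 read 78.7, 76.0 and 60.02 CPM in WT, 51.0, 46.8 and 53.1 in MlxKO, 38.0, 41.0 and 43.7 in MycKO and 29.9, 26.9 and 29.0 in DKO libraries, and all MlxKO libraries lay below WT. The call for Orc1 was lost without WT library 1 or 2 or MlxKO library 5 or 6 (log2 change -0.57 to -0.41, limma adjusted p up to 0.126). The count was small and depended on single libraries, with 3 genes left without WT library 1, WT library 2 or MlxKO library 5, 6 without MlxKO library 6 and 16 without MycKO library 10, which enters through the shared spread. Of those 16, 15 were lower and 1, Orc3, was higher (limma adjusted p 0.0238), and Orc3 was also called higher without WT library 3 and after a correction for GC content and length. Mcm5 and Clspn passed the test without any 1 of the 12 libraries.

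The loss of Mlx was also measured in cells that lacked Myc. From MycKO to DKO, 23 of the 49 fell (median -0.31, where 11% of all tested genes fell) and none rose by limma, edgeR or DESeq2 or at an unadjusted p under 0.05, where 10.6% of all tested genes rose. All DKO libraries lay below all MycKO libraries for 34 genes, against 18.9% of all genes, and the fitted change was negative for 48, the exception being Orc5 at 0.13. The 23 included the 6 ring genes, both other MCM genes, Cdc6, Cdt1, Pola1 and Wdhd1, and, by any of the 3 tools, 0 of the 6 genes of helicase activation and 0 of the 2 of Okazaki processing, of which 2 and 1 had an unadjusted p under 0.05. On the log2(CPM + 1) scale the largest changes were those of Cdc6, Cdt1, -0.61 (SE 0.095, limma adjusted p 0.000183), and Mcm2, -0.61 (SE 0.068, limma adjusted p 5.96e-06). From MlxKO to DKO, 46 of the 49 fell (median -0.73, where 25.9% of all tested genes fell), all but Orc5, Gins2 and Rpa3, and none rose, where 23.3% of all genes did.

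Whether the loss of Mlx acted differently with and without Myc was tested as an interaction, the change from MycKO to DKO minus the change from WT to MlxKO. It passed the threshold for 2 of the 49 genes, both negative, where 6.07% of all tested genes had a negative and 7.47% a positive call: Cdt1 at -0.47 (SE 0.13, limma adjusted p 0.0256) and Mcm2 at -0.36 (SE 0.10, limma adjusted p 0.0187). Cdt1 was at nearly the same level in WT and MlxKO and fell from MycKO to DKO. Of the 2 genes, 1 was left without WT library 2 or 3, MlxKO library 7 or DKO library 13 or 14. The call for Cdt1 was lost without WT library 2 or 3, MlxKO library 7, MycKO library 11 or DKO library 13 (log2 change -0.45 to -0.40, limma adjusted p up to 0.0743), and that for Mcm2 without MycKO library 11 or DKO library 14 (log2 change -0.33 to -0.31, limma adjusted p up to 0.0576). For the other 47 genes the log2 difference ranged from -0.38 to 0.17 and did not pass the test.

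In immortalized MEFs the same genes stood at higher levels in WT cells and did not fall together. The summed level of the 49 was 3832 to 4273 CPM in WT, 3896 to 4080 in MlxKO, 3745 to 3870 in MycKO and 3607 to 3685 in DKO libraries, so that WT overlapped MlxKO and MycKO, and DKO lay below all. For 48 of the 49 genes the WT mean was higher than in the primary table, with a median ratio of 1.98, but the 2 tables were normalized separately and this was not tested. Only Gins3 was lower. Per kilobase, Pcna at 135 CPM per kb (SD 1.51, n = 3), Mcm6 at 69.5 and Mcm4 at 46.4 were again the highest in WT, and Gins3 at 1.59 was the lowest in place of Ticrr.

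Against immortalized WT, 6 of the 49 fell and 5 rose in MycKO (median -0.010), where 23.5% of all tested genes fell and 24.4% rose, or 48% in either direction. In MlxKO 9 fell and 8 rose (median 0.014), where 19.9% and 19.1% of all genes did. In DKO 6 fell (median -0.17), where 8.51% fell and 10.4% rose, and none of the 49 rose by limma or edgeR, with 2 higher at an unadjusted p under 0.05 and 1, Pold1, called higher by DESeq2. In all, 27 of the 49 passed in none of the 3 comparisons, which share their WT libraries. The share of all tested genes that passed in none was not counted. The MlxKO count of 17 became 10 without WT library 2 and 9 without MlxKO library 6 or 7, and the DKO count of 6 became 3 without WT library 2, MlxKO library 7 or DKO library 14 and 2 without DKO library 13 or 15. Without WT library 4, the library that stood apart, 7 were lower and 7 higher in MycKO, 7 and 13 in MlxKO, and 4 and 1 in DKO. When only the groups compared were fitted, 0 genes passed in DKO by limma, with 12 lower and 1 higher at an unadjusted p under 0.05, against 6 by edgeR and 9 by DESeq2 on all 4 groups. Scaling by library totals, which raised the median of all genes in MlxKO by 0.16, gave 4 lower and 17 higher there and 7 lower and 1 higher in DKO. The plot of selected genes by library sets the values of both tables side by side.

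**Figure D3:**
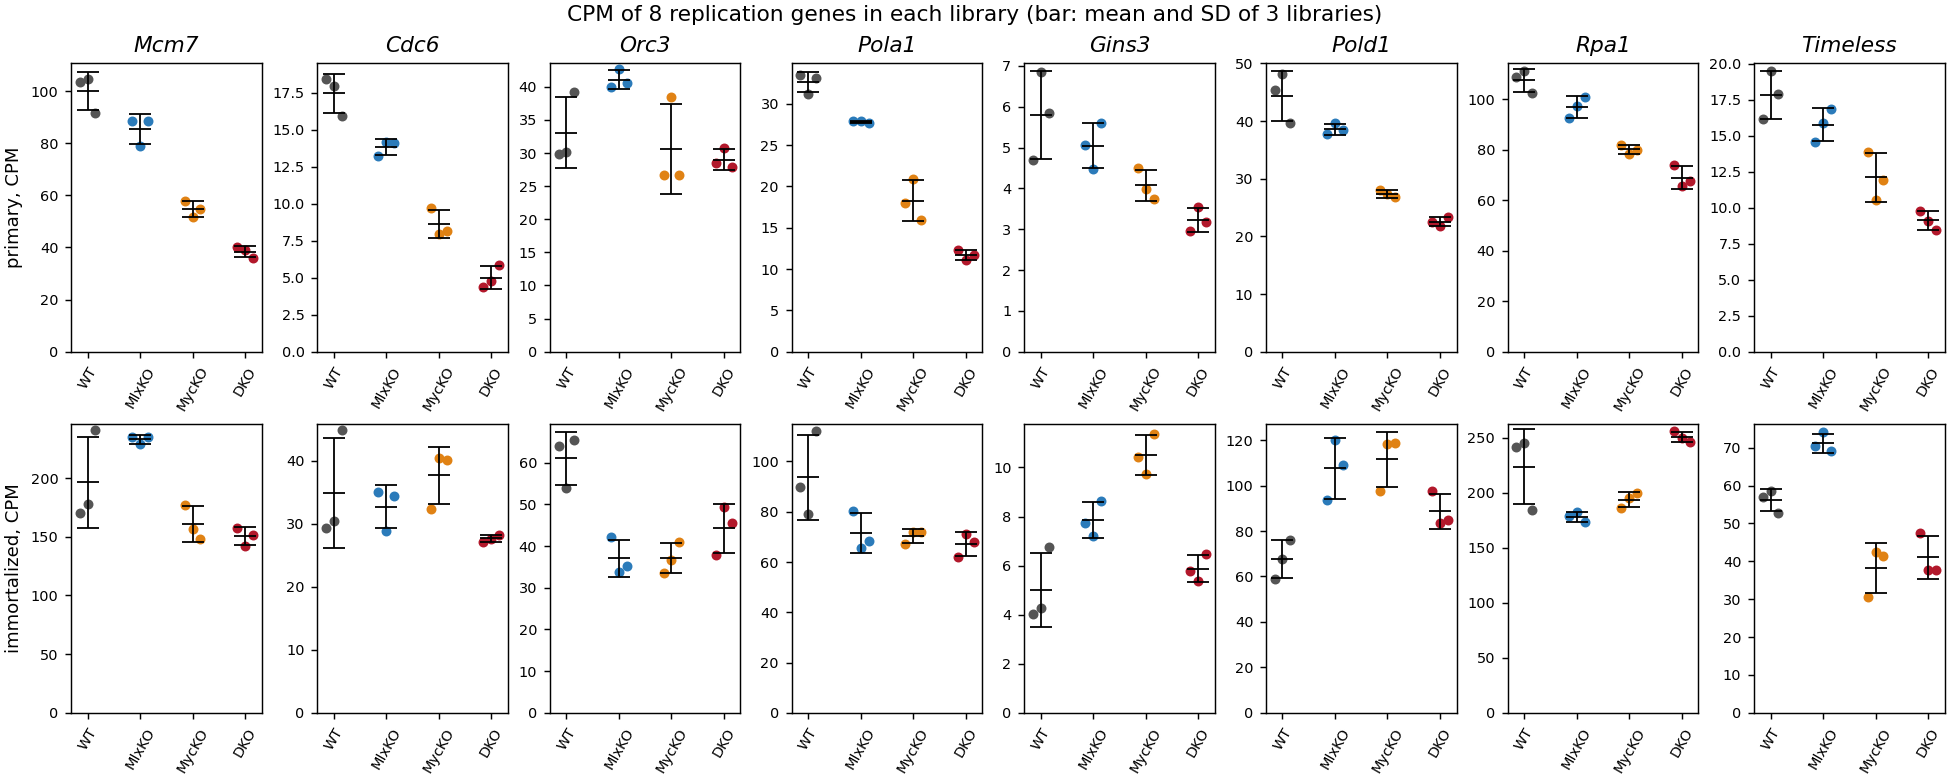
CPM of 8 replication genes in each of the 3 libraries of each genotype (points), with their mean and SD (bars), for primary MEFs (top) and immortalized MEFs (bottom), each panel with its own axis from 0. Mcm7, Cdc6 and Pola1 step down from WT to DKO in the top row, and Gins3 and Pold1 are higher in MycKO and MlxKO than in WT in the bottom row.

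In immortalized cells the changes varied with the base composition of the genes. Across the 49 genes the log2 change correlated with GC content, taken from the longest transcript of each gene. The r was 0.74 in MlxKO, 0.43 in MycKO and 0.49 in DKO, against 0.47, 0.30 and 0.29 over all genes tested. In primary cells r over the 49 genes was -0.35, -0.21 and -0.23 in the same order, against -0.079, 0.18 and 0.21 over all genes tested. These are descriptions across genes of the same libraries, whose comparisons share WT. In MlxKO the 9 genes that fell had a median GC content of 44.0% and the 8 that rose 54.3%. When each library was corrected for GC content and length, 11 of the 49 passed in MlxKO, 3 lower and 8 higher. The 8 were not the same genes as before: Pold1, Lig1 and Cdt1 no longer passed as higher, and Pola1 went from a lower to a higher call. Corrected values are given below beside many but not all of the calls, and the part of base composition in the changes was not tested further.

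**Figure D4:**
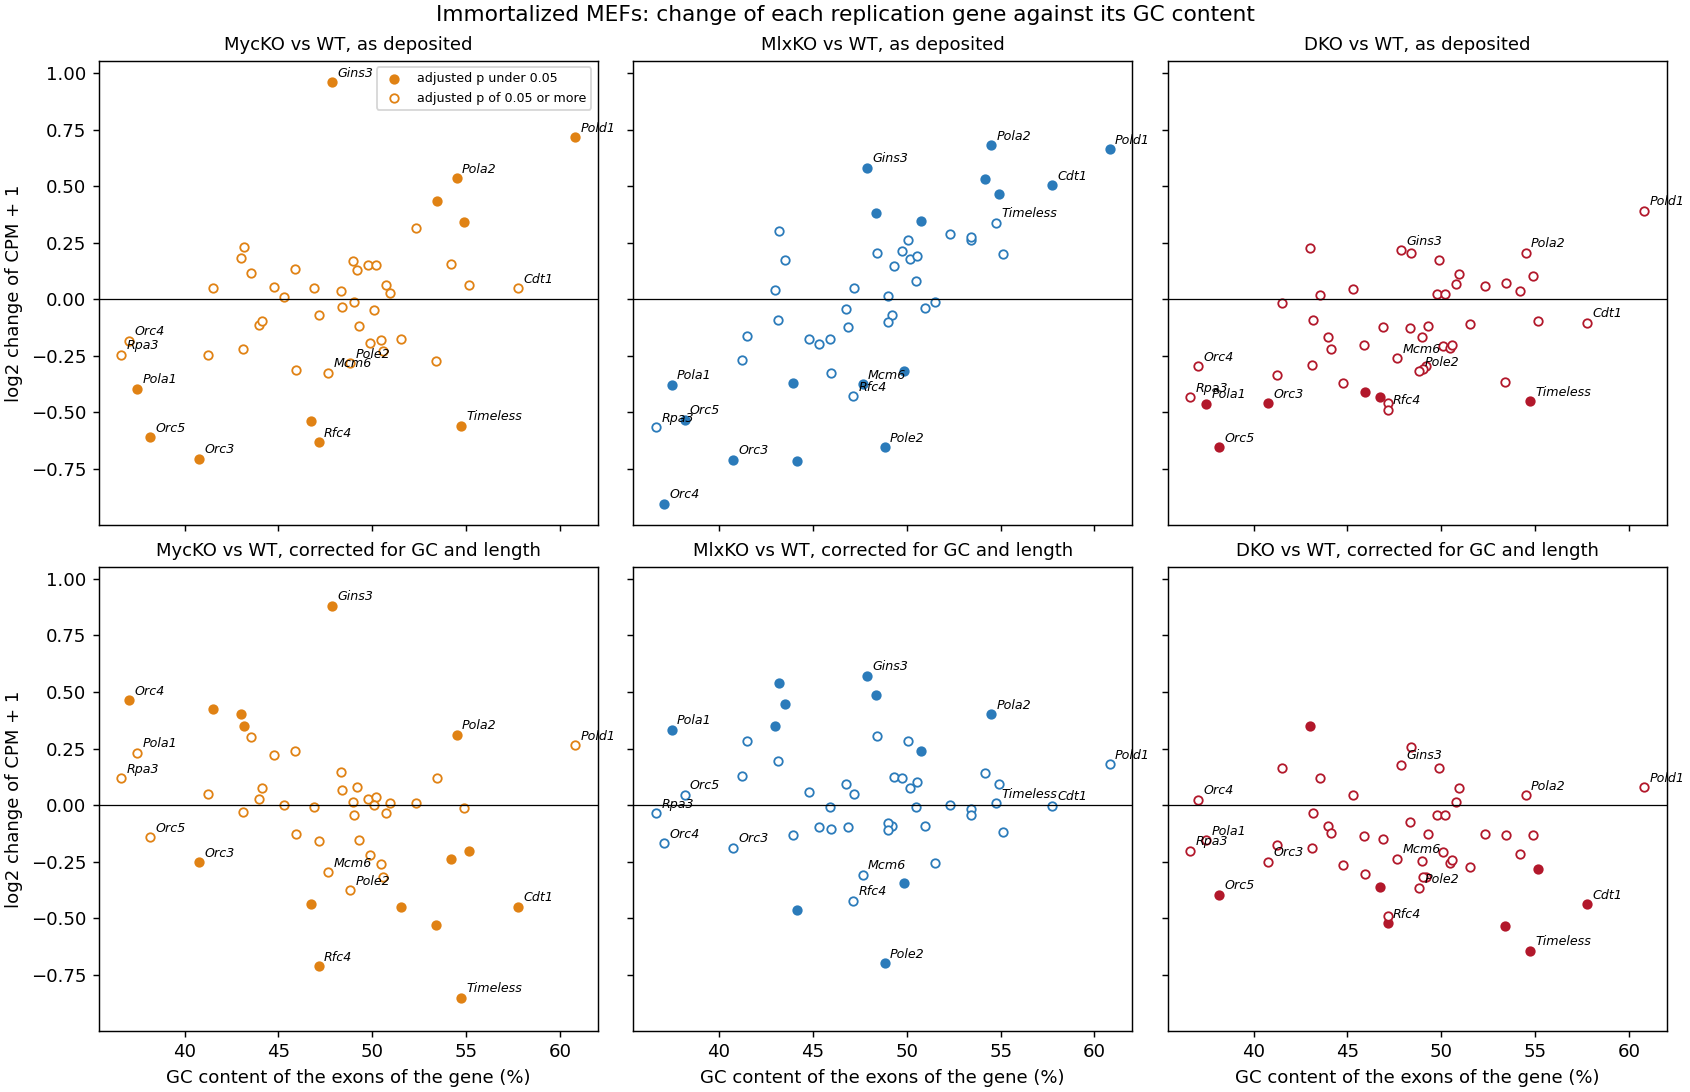
Log2 change of each replication gene in immortalized MycKO, MlxKO and DKO against WT (vertical axis) over its GC content in percent (horizontal axis). GC content is that of the longest transcript, which the axis labels as exons. The top row is as fitted and the bottom row is after a correction for GC content and length. Filled points have an adjusted p under 0.05, and in the top row the MlxKO points rise with GC content, with r = 0.74 over 49 genes.

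The genes that rose in immortalized MycKO were Gins3, Gins2, Pola2, Pold1 and Lig1, all of which except Gins2 also rose in MlxKO. Gins3, a GINS subunit, read 4.04, 4.27 and 6.76 CPM in WT, 7.74, 7.21 and 8.62 in MlxKO, 10.4, 9.72 and 11.4 in MycKO and 5.80, 5.37 and 6.46 in DKO libraries. All MycKO and MlxKO libraries lay above WT and above DKO, and DKO overlapped WT. The log2 change was 0.96 (SE 0.17, limma adjusted p 0.000859) in MycKO, 0.58 (SE 0.17, limma adjusted p 0.0203) in MlxKO and 0.22 (SE 0.17, limma adjusted p 0.395) in DKO, and the first and second held after the correction, at 0.88 and 0.57. The MlxKO call was lost without WT library 2 or 3 or MlxKO library 7 (log2 change 0.47 to 0.52, limma adjusted p up to 0.0830). Pola2 read 35.4, 33.1 and 40.0 CPM in WT, 56.4, 62.5 and 56.4 in MlxKO, 48.7, 54.5 and 55.1 in MycKO and 46.5, 37.0 and 42.2 in DKO libraries. It rose by 0.53 (SE 0.12, limma adjusted p 0.00278) in MycKO and 0.68 (SE 0.12, limma adjusted p 0.00129) in MlxKO, and both calls held after the correction at 0.31 and 0.40.

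Pold1 read 59.1, 67.7 and 76.0 CPM in WT, 93.5, 120.2 and 109 in MlxKO, 97.5, 119 and 119 in MycKO and 97.6, 83.5 and 85.0 in DKO libraries. All 9 knockout libraries lay above all WT libraries, with changes of 0.72 (SE 0.13, limma adjusted p 0.000978) in MycKO, 0.66 (SE 0.13, limma adjusted p 0.00278) in MlxKO and 0.39 (SE 0.13, limma adjusted p 0.0573) in DKO. After the correction they were 0.26 in MycKO and 0.18 in MlxKO, and neither passed. Lig1 read 105, 124 and 90.3 CPM in WT, 139, 151 and 148 in MlxKO, 118, 143 and 142 in MycKO and 122, 113 and 105 in DKO libraries, so that MlxKO lay above WT and MycKO overlapped it. Lig1 rose by 0.34 (SE 0.13, limma adjusted p 0.0404) in MycKO and 0.47 (SE 0.13, limma adjusted p 0.0127) in MlxKO, and after the correction stood at -0.011 and 0.090, so that neither call held. Without the correction the MycKO call was lost without WT library 2 or 4, MlxKO library 6 or 7, MycKO library 10 or 11 or DKO library 14 (log2 change 0.23 to 0.34, limma adjusted p up to 0.128). Gins2 rose by 0.44 (SE 0.13, limma adjusted p 0.0146) in MycKO and was at 0.12 after the correction, and the call also failed when only WT and MycKO were fitted.

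Of the 6 origin recognition genes, Orc2 to Orc5 fell in MlxKO, where 19.9% of all tested genes fell, and after the correction Orc2 alone kept that call. Orc3 read 64.1, 53.8 and 65.4 CPM in WT, 42.1, 33.8 and 35.2 in MlxKO, 33.6, 36.7 and 41.0 in MycKO and 37.8, 49.4 and 45.6 in DKO libraries. All 9 knockout libraries lay below WT, with changes of -0.70 (SE 0.14, limma adjusted p 0.00137) in MycKO, -0.71 (SE 0.14, limma adjusted p 0.00235) in MlxKO and -0.46 (SE 0.14, limma adjusted p 0.0361) in DKO, which after the correction were -0.25, -0.19 and -0.25, with the MycKO call alone held. The DKO call was lost without WT library 2 or 4, MlxKO library 7 or DKO library 13 or 15 (log2 change -0.48 to -0.35, limma adjusted p up to 0.149). Orc4 read 80.1, 67.1 and 99.5 CPM in WT, 51.4, 37.4 and 41.0 in MlxKO, 93.5, 59.2 and 65.5 in MycKO and 51.5, 68.7 and 81.0 in DKO libraries. It fell, with a log2 change of -0.90 (SE 0.21, limma adjusted p 0.00623) in MlxKO, the largest fall of any of the 49 in an immortalized knockout, and the correction left -0.17, which did not pass. Orc2 read 60.3, 48.3 and 76.3 CPM in WT, 42.2, 34.0 and 34.0 in MlxKO, 64.7, 53.8 and 52.1 in MycKO and 44.8, 56.5 and 55.3 in DKO libraries, and its MlxKO change of -0.72 (SE 0.17, limma adjusted p 0.00627) held after the correction at -0.46. Orc5 read 21.5, 18.9 and 30.2 CPM in WT, 16.8, 14.51 and 15.8 in MlxKO, 15.4, 14.3 and 14.7 in MycKO and 13.1, 14.6 and 15.4 in DKO libraries. All 9 knockout libraries of Orc5 lay below WT. The gene fell in all 3 knockouts, with log2 changes of -0.61 (SE 0.16, limma adjusted p 0.00781) in MycKO, -0.53 (SE 0.16, limma adjusted p 0.0202) in MlxKO and -0.65 (SE 0.16, limma adjusted p 0.0150) in DKO, and after the correction the DKO call held, at -0.40, while the values for MycKO and MlxKO, -0.14 and 0.047, did not pass. The MlxKO call was lost without MlxKO library 6 or 7 (log2 change -0.54 to -0.48, limma adjusted p up to 0.0814) and the DKO call without DKO library 13 (log2 change -0.59, limma adjusted p up to 0.0664).

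In MycKO, 2 of the 6 clamp and loader genes and 1 of the 4 fork protection genes fell, where 23.5% of all tested genes did. Rfc1 read 113, 104 and 131 CPM in WT, 119, 107 and 110.5 in MlxKO, 76.7, 78.4 and 83.0 in MycKO and 87.2, 85.6 and 83.4 in DKO libraries. MycKO and DKO libraries lay below WT and MlxKO overlapped it, with changes of -0.54 (SE 0.10, limma adjusted p 0.00113) in MycKO and -0.43 (SE 0.10, limma adjusted p 0.0128) in DKO, which held after the correction at -0.44 and -0.36. Timeless, which with Tipin links helicase and polymerase, read 57.1, 58.5 and 52.8 CPM in WT, 70.4, 74.0 and 69.1 in MlxKO, 30.6, 42.6 and 41.4 in MycKO and 47.5, 37.7 and 37.8 in DKO libraries. It fell, with a log2 change of -0.56 (SE 0.14, limma adjusted p 0.00559) in MycKO and -0.45 (SE 0.14, limma adjusted p 0.0387) in DKO, at -0.85 and -0.64 after the correction, and the DKO call was lost without WT library 2 or 3, MlxKO library 5, 6 or 7, MycKO library 11 or DKO library 14 or 15 (log2 change -0.45 to -0.39, limma adjusted p up to 0.123). By contrast all its MlxKO libraries lay above WT, at 0.34 (SE 0.14, limma adjusted p 0.0671), which did not pass. Rfc4 read 38.2, 31.7 and 52.8 CPM in WT, 33.7, 26.3 and 28.9 in MlxKO, 30.8, 22.5 and 23.8 in MycKO and 23.5, 30.2 and 31.6 in DKO libraries, and its MycKO and DKO libraries lay below WT. The log2 change of Rfc4 was -0.63 (SE 0.19, limma adjusted p 0.0173) in MycKO and stood at -0.71 after the correction, and the call was lost without MycKO library 10 or 11 (log2 change -0.58 to -0.54, limma adjusted p up to 0.0658). Wdhd1 fell in DKO, with a log2 change of -0.41 (SE 0.13, limma adjusted p 0.0478), near the threshold, and was at -0.31 after the correction, which did not pass, and the call was lost without WT library 2 or 4, MlxKO library 6 or 7, MycKO library 10 or 11 or DKO library 13, 14 or 15 (log2 change -0.44 to -0.31, limma adjusted p up to 0.145).

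Pola1 fell in all 3 immortalized knockouts as fitted, with log2 changes of -0.39 (SE 0.13, limma adjusted p 0.0261) in MycKO, -0.38 (SE 0.13, limma adjusted p 0.0378) in MlxKO and -0.46 (SE 0.13, limma adjusted p 0.0299) in DKO. It read 89.7, 79.1 and 112 CPM in WT, 80.5, 65.6 and 68.2 in MlxKO, 67.2, 72.0 and 71.8 in MycKO and 62.1, 71.3 and 68.1 in DKO libraries, with the MlxKO libraries overlapping WT. After the correction the value turned to 0.23 in MycKO, which did not pass, and to 0.33 in MlxKO, which passed in the other direction (limma adjusted p 0.0212), so its direction depended on the correction, and in DKO it was -0.16, which did not pass. Without it the MycKO call was lost without WT library 4 or MycKO library 9, 10 or 11 (log2 change -0.41 to -0.26, limma adjusted p up to 0.0734). The primase subunit Prim2 read 39.1, 37.8 and 37.7 CPM in WT, 44.4, 38.4 and 35.6 in MlxKO, 42.6, 43.5 and 44.2 in MycKO and 42.5, 45.5 and 46.7 in DKO libraries, and no change of it passed. In MlxKO, Pole2 fell, with a log2 change of -0.65 (SE 0.15, limma adjusted p 0.00504) and was at -0.70 after the correction.

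The MCM ring, which fell as a block in primary cells, had 1 gene lower and 1 higher in immortalized MlxKO and 0 of 6 in MycKO and DKO by limma or edgeR, with 2 of 6 in each at an unadjusted p under 0.05 and 1 and 2 called by DESeq2. By limma, 19.9% of all tested genes were lower and 19.1% higher in MlxKO, 23.5% and 24.4% in MycKO, and 8.51% and 10.4% in DKO. The counts among these 6 genes were not tested against those shares. The median change was -0.17 in MycKO and -0.19 in DKO. Mcm5 read 128, 148 and 155 CPM in WT, 174, 187 and 185 in MlxKO, 151, 154 and 144 in MycKO and 154, 143 and 153 in DKO libraries, and it rose in MlxKO by 0.35 (SE 0.10, limma adjusted p 0.0138), with all MlxKO libraries above WT, a call lost without WT library 2 or MlxKO library 6 or 7 (log2 change 0.27 to 0.33, limma adjusted p up to 0.0673). Mcm6 fell in MlxKO, with a log2 change of -0.38 (SE 0.13, limma adjusted p 0.0345), a call that was lost under several alternatives, among them the correction, at -0.31. Mcm10 read 26.8, 29.5 and 38.2 CPM in WT, 41.1, 40.5 and 41.0 in MlxKO, 32.5, 32.2 and 31.3 in MycKO and 28.3, 29.4 and 27.6 in DKO libraries and rose in MlxKO by 0.38 (SE 0.12, limma adjusted p 0.0294), at 0.49 after the correction, with the call lost without WT library 2 or 3 or MlxKO library 5, 6 or 7 (log2 change 0.28 to 0.39, limma adjusted p up to 0.124). Cdt1 read 75.4, 79.9 and 74.4 CPM in WT, 111, 112 and 105 in MlxKO, 66.9, 84.5 and 88.0 in MycKO and 80.0, 64.4 and 69.9 in DKO libraries. Its MlxKO libraries stood above all others, with a change of 0.50 (SE 0.12, limma adjusted p 0.00646), which the correction brought to -0.0020. Rpa1 fell in MlxKO, with a log2 change of -0.32 (SE 0.11, limma adjusted p 0.0404), a call that edgeR did not make.

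From immortalized MycKO to DKO, 2 of the 49 fell, Gins3 at -0.74 (SE 0.17, limma adjusted p 0.00664) and Gins2 at -0.36 (SE 0.13, limma adjusted p 0.0492), the latter at -0.25 and no longer called after the correction, and Rpa1 rose by 0.37 (SE 0.11, limma adjusted p 0.0252), where 14.6% of all tested genes fell and 14.8% rose. The count of 3 became 1 without DKO library 14 or 15 and 9 without WT library 4. Rpa1 read 241, 245 and 184 CPM in WT, 179, 182 and 173 in MlxKO, 186, 196 and 199.7 in MycKO and 256, 249 and 246 in DKO libraries, so that DKO lay above all other libraries, and its call was lost without MycKO library 9, 10 or 11 or DKO library 13, 14 or 15 (log2 change 0.34 to 0.39, limma adjusted p up to 0.0723). From MlxKO to DKO, 11 fell and 3 rose, where 13.9% and 16.3% did, led by Timeless at -0.79 (SE 0.14, limma adjusted p 0.00136) and Mcm7 at -0.63 (SE 0.13, limma adjusted p 0.00360). That count became 8 without MlxKO library 6 or 7, 9 without MycKO library 11 and 7 without DKO library 14 or 15, and scaling by library totals, which lowered the median of all genes by 0.16, gave 22 lower and 0 higher.

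The interaction passed the threshold for 14 of the 49 genes in immortalized cells, 10 negative and 4 positive, where 23.8% and 23.7% of all tested genes passed. The largest were Gins3 at -1.32 (SE 0.25, limma adjusted p 0.00110), Pola2 at -1.01 (SE 0.17, limma adjusted p 0.000485) and Pold1 at -0.99 (SE 0.19, limma adjusted p 0.00124), genes that rose with either loss and were nearer to WT with both. The positive ones were led by Orc3 at 0.95 (SE 0.19, limma adjusted p 0.00190) and Orc4 at 0.79 (SE 0.30, limma adjusted p 0.0452), whose fitted fall was larger in MlxKO than in DKO. The call for Orc4 was lost without WT library 2 or 4, MlxKO library 6 or 7, MycKO library 10 or 11 or DKO library 14 or 15 (log2 change 0.65 to 0.80, limma adjusted p up to 0.112). After the correction Gins3, Pola2, Mcm10, Pole2 and Rpa1 kept their calls. Pold1 at -0.37, Orc3 at 0.19 and Orc4 at -0.27 were among those that did not. The count became 9 without WT library 2 or DKO library 15 and 22 without WT library 4, and scaling by library totals gave 15 negative and 2 positive.

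Set side by side, 4 genes fell in primary MycKO and rose in immortalized MycKO, namely Gins3 (-0.41 and 0.96), Pola2 (-0.59 and 0.53), Pold1 (-0.67 and 0.72) and Lig1 (-0.75 and 0.34), and Mcm5 and Mcm10 did so in MlxKO. Once base composition and length were adjusted for, Gins3 and Pola2 still rose in immortalized MycKO, whereas Pold1 and Lig1 no longer passed. The immortalized calls of Lig1 in MycKO and of Mcm5 and Mcm10 in MlxKO were also lost without certain single libraries. Because 46 of the 49 fell in primary MycKO, almost any gene that rose in immortalized MycKO would count here. In MycKO, 5 genes fell in both tables, and in DKO also 5. The shares of all tested genes with opposite calls or with falls in both tables were not counted. Since the tables were normalized separately, no test of the difference between primary and immortalized cells was made.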

How the data were processed

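Poly-A RNA of 24 samples, 3 for each of 4 genotypes in primary and in immortalized MEFs, was sequenced from directional libraries, and reads were mapped to GRCm39 in CLC Genomics Workbench, per the study's methods and the submitters' processing notes. The authors deposited 1 table of CPM for each cell type, over 41710 genes, which they had scaled between libraries: the deposited values are thus a normalized signal, and each library's CPM sum to 915691 to 1077213. The scaling method and the strand setting of the counting are not given in the sources used here. All values were whole multiples of the worth of 1 read within 0.01 read (100% of values), so reads could be recovered. A column names its genotype but not its replicate, so columns were mapped to groups.

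Values were tested as log2(CPM + 1) with limma 3.58.1 in R 4.3.3 (empirical Bayes with a mean trend, 4 groups of a table in a single fit), over the 13101 primary and 12880 immortalized genes that reached 1 CPM in 3 or more libraries of a table, with Benjamini-Hochberg adjustment over all of them and a threshold of 0.05. Fold changes are on this scale and understate those of low genes. All 49 genes were tested in both tables. A log scale was used because the values are not counts, and alternatives were the recovered reads tested with edgeR 4.0.16 and with DESeq2 1.42.0, a pseudocount of 0.1, no filter, a mean of at least 5 CPM, median-ratio scaling, scaling by library totals, only the groups compared, a robust prior, an absolute log2 change of at least 1, a correction for GC content and length, and leaving out each library. The fits were tested on simulated data. Gene positions, exon lengths and GC content, the last from the longest transcript of a gene, come from GENCODE vM39. Members, lists and tests were chosen with earlier results of these data known. Values of every library are given for the genes with the largest and smallest change of each role in primary DKO, the largest changes in immortalized cells, and the genes with an interaction or opposite calls. The other genes so shown, Pcna in primary and Timeless, Cdt1, Rpa1 and Rfc1 in immortalized cells, were chosen after their values were seen.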

Additional observations from a re-analysis of the deposited data

Results flagged for a closer look

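The loss of Mlx had a different effect with and without Myc for some genes, by the interaction test in limma. In primary cells this held for Mcm2 (-0.36) and Cdt1 (-0.47), both with a larger fall when Myc was also lost. In immortalized cells the difference was negative for Mcm2 (-0.36), Mcm10 (-0.55), Cdt1 (-0.66), Gins2 (-0.64), Gins3 (-1.32), Pola2 (-1.01), Pold1 (-0.99), Pold2 (-0.65), Fen1 (-0.54) and Lig1 (-0.70), and positive for Orc3 (0.95), Orc4 (0.79), Pole2 (0.62) and Rpa1 (0.69). Each value is a log2 difference over 3 libraries in each of 4 groups. In primary cells 4.08% of the 49 had a negative and 0% a positive call, against 6.07% and 7.47% of all tested genes. In immortalized cells the shares were 20.4% and 8.16%, against 23.8% and 23.7%. Both primary calls were lost when certain single libraries were left out. The immortalized calls of Pold1, Orc3 and Orc4 were among those lost once GC content and length were adjusted for. Those of Gins3, Pola2, Mcm10, Pole2 and Rpa1 were kept. Mcm2 and Cdt1 were negative in both tables, but in immortalized cells the values corrected for GC content and for length were 0.039 and 0.011, so that neither negative call held. The outcomes for Gins2, Pold2, Fen1 and Lig1 are not given here.

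For some genes, many of them among those just named, every library of a knockout moved one way against WT in primary cells and the opposite way in immortalized cells. This difference between the tables was not tested, because they were normalized separately. The share of all tested genes that did so was not counted. In primary cells 45, 28 and 47 of the 49 lay wholly below WT in MycKO, MlxKO and DKO. In MycKO and DKO almost any gene wholly above WT in immortalized cells would thus count here. In MycKO, with the primary value first, it concerned Gins3 (-0.41 and 0.96), Pola2 (-0.59 and 0.53), Prim2 (-0.42 and 0.18), Pold1 (-0.67 and 0.72) and Fen1 (-0.76 and 0.31). In MlxKO it concerned Mcm2 (-0.25 and 0.20), Mcm5 (-0.49 and 0.35), Mcm10 (-0.38 and 0.38), Orc3 (0.32 and -0.71), Gins2 (-0.33 and 0.27), Pola2 (-0.21 and 0.68), Pold1 (-0.19 and 0.66) and Lig1 (-0.32 and 0.47), of which Orc3 alone was higher in primary cells. In DKO it concerned Prim2 (-0.70 and 0.23), Pold1 (-0.94 and 0.39) and Rpa1 (-0.63 and 0.17). Not all of these changes passed the test, with the primary MlxKO value of Pold1 at a limma adjusted p of 0.143 and the immortalized DKO value of Rpa1 at 0.281. Groups of 3 libraries are too small for a test of single outlying libraries.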

How the results depend on the processing

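Of 14002 values for single genes under the alternatives, 13177 stayed on their side of the threshold, 571 dropped below it and 239 rose above it. Changes of sign between uncalled values were counted among the 13177. The other 15 changed sign and were called in the main fit, the alternative or both. All 15 were in immortalized cells under the correction for GC content and length, and they concerned Orc4 (0.46), Mcm2 (-0.20), Lig1 (-0.011), Cdt1 (-0.45), Pold2 (-0.24) and Pola1 (0.23) in MycKO, Orc5 (0.047), Cdt1 (-0.0020) and Pola1 (0.33) in MlxKO, and Prim2 (-0.40), Orc4 (-0.27), Dbf4 (-0.54), Mcm2 (0.039), Cdt1 (0.011) and Pola1 (-0.72) in the interaction. The same correction gave 4 genes in the primary interaction, and 11 in MlxKO and 6 from MycKO to DKO in immortalized cells. Requiring an absolute log2 change of at least 1 left 1 of the 49 in primary MycKO, 0 in MlxKO, 23 in DKO, 0 from MycKO to DKO, 12 from MlxKO to DKO and 0 in the interaction, and in immortalized cells 2 in the interaction and 0 in the other 5 comparisons. Fitting only the groups compared gave 7 in immortalized MycKO, 11 in MlxKO, 0 in DKO and 5 from MycKO to DKO. In immortalized cells, testing without a filter on low values gave 3 in DKO, DESeq2 gave 5 from MycKO to DKO and scaling by library totals 22 from MlxKO to DKO. Apart from the construction of each alternative, the cause was not tested. Leaving out 1 library at a time gave 42 to 48 in primary MycKO, 3 to 16 in MlxKO, 46 to 48 in DKO, 20 to 23 from MycKO to DKO, 44 to 47 from MlxKO to DKO and 1 to 3 in the interaction. In immortalized cells it gave 8 to 14 in MycKO, 9 to 21 in MlxKO, 2 to 8 in DKO, 1 to 9 from MycKO to DKO, 7 to 19 from MlxKO to DKO and 9 to 22 in the interaction. No paired analysis was possible because the columns carry library numbers that the labels do not tie to replicate numbers. Depth limits the low genes most, since 3 reads were worth 0.145 to 0.196 CPM.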
